A study of Mus musculus with 17 samples.

Results

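Synaptic vesicle and SNARE genes were taken as all gene symbols of 11 families in the count table, which gave 71 of 21640 genes. The families are the VAMPs (8 genes), the syntaxins (15), the SNAP genes (5), the syntaxin-binding genes (6), the synapsins (3), the SV2 genes (3), the synaptotagmins (17), the complexins (3), the RAB3 genes (4), the UNC13 genes (3) and the RIMs (4). By their textbook roles, 35 members were listed as neuronal release machinery, 22 as paralogues of membrane trafficking in most cells and 14 as of mixed or uncertain role. Bulk RNA-seq was measured in 17 mouse samples of 4 groups. Arteriolar smooth muscle cells (aSMCs) of cerebral arterioles were sorted from SMACreER:Ai47 mice (n = 6, termed Ai47 aSMCs) and from SMACreER:Ai14 mice (n = 2, termed Ai14 aSMCs), cells labelled as astrocytes were sorted from the cerebral cortex of hGFAPCreER:Ai14 mice (n = 3), and cerebral cortex of WT mice was taken as homogenate (n = 6). SMACreER is a tamoxifen-inducible Cre under the smooth muscle actin promoter and hGFAPCreER one under the human GFAP promoter, so that each sort draws on whichever cells the promoter had marked. For the adult Ai47 sort, the study's methods also describe prior enrichment of cerebral vessels and removal of endothelial and immune cells by surface markers. Ai47 and Ai14 are the EGFP and tdTomato reporter alleles. The labels give no age, and the study's methods describe adult mice for the Ai47 sort. The cortex samples are WT homogenate by their labels, whereas the study's text describes the control as dissociated cortex set aside from the animals of the sort, and this conflict is not settled here. The study's legends count sorted aSMC and cortex samples as mice, without naming the libraries. A legend that names SMACreER:Ai14 mice as the source of the sorted aSMCs counts 6 mice. The labels give 2 Ai14 and 6 Ai47 aSMC samples, and the same legend and the study's methods also name Ai47. Which aSMC group that count covers is not settled here. No count of mice was found for labelled astrocytes, and none that matches the 2 Ai14 aSMC samples. The p-values of these groups may therefore rest on technical spread alone.

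Release of a synaptic vesicle is driven by SNARE proteins. A VAMP on the vesicle zippers with a syntaxin and a SNAP protein on the target membrane, a Munc18 protein (Stxbp genes) holds the syntaxin, UNC13 and RIM proteins prime and dock the vesicle at the active zone, and synaptotagmins and complexins tie fusion to calcium. Synapsins and RAB3 proteins bind the vesicle surface, and SV2 proteins are vesicle membrane glycoproteins. Every cell also uses SNARE pairs for its own secretory and endosomal traffic, mostly through other members of the same families, such as SNAP23 in place of SNAP25 and VAMP3 in place of VAMP2.

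Library totals were 41499087 to 53643624 counts in Ai47 aSMCs, 14870507 and 14979228 in Ai14 aSMCs, 5397905 to 7288036 in cortex and 4537137 to 7390630 in labelled astrocytes. Of the 71 members, 55 to 58 had counts in an Ai47 library, 68 in each Ai14 library, 60 to 69 in a cortex library and 36 to 52 in a labelled astrocyte library. The mitochondrial share was 35.7% to 72.9% of counts in cortex, 0.214% to 0.559% in Ai47 aSMCs, 16.8% and 17.6% in Ai14 aSMCs and 10.7% to 12.5% in labelled astrocytes. Levels are CPM, the counts of a gene scaled to the library total after TMM scaling over the 17 libraries. The summed level of 8 smooth muscle markers was 5191 to 6705 CPM in Ai47 aSMCs and 8038 and 8641 CPM in Ai14 aSMCs, against 28.4 to 138 CPM in cortex. The 6 pericyte markers averaged 3772 CPM in Ai47 aSMCs, 8527 CPM in Ai14 aSMCs and 397 CPM in cortex. The summed level of 12 neuron markers, none of them a member, averaged 0.751% of cortex in Ai47 aSMCs, 2.94% in Ai14 aSMCs and 0.135% in labelled astrocytes. Among 9 astrocyte markers, labelled astrocytes had more Aqp4 (510 CPM against 83.4 CPM in cortex) and Gfap (94.0 against 36.9 CPM), less Slc1a2 (324 against 9206 CPM) and no Gjb6 counts. The 9 summed to 911 to 1411 CPM in Ai47 aSMCs, where Gja1 alone averaged 1093 CPM, to 161 and 248 CPM in Ai14 aSMCs and to 1141 to 1781 CPM in labelled astrocytes, against 3387 to 18440.4 CPM in cortex, and the part of these cells in the members' levels was not tested. The summed level of 6 ependyma and choroid plexus markers in labelled astrocytes was 594 to 2411 CPM, with Foxj1 at a mean of 340 CPM against 0.726 CPM in cortex. The label is kept below only as the name of the group.

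With TMM scaling, neuronal release genes were low as a group outside cortex, and the broad paralogues were not. Summed over the 35 neuronal members, the level was 2043 to 3020 CPM in cortex, 196 to 623 CPM in Ai47 aSMCs, 264 and 278 CPM in Ai14 aSMCs and 160 to 493 CPM in labelled astrocytes. The groups outside cortex overlapped one another and none reached cortex. In Ai47 aSMCs, Cplx2 (190 CPM) and Syn3 (96.0 CPM) made up most of the mean sum of 334 CPM. They averaged 31.2 and 36.2 CPM in Ai14 aSMCs, of a mean sum of 271 CPM. The overlap of the aSMC sums therefore does not describe the other members, which are compared directly below. Summed over the 22 broad members, the level was 255 to 338 CPM in cortex, 182 to 350 CPM in Ai47 aSMCs, 305 and 346 CPM in Ai14 aSMCs and 352 to 857 CPM in labelled astrocytes. All 3 labelled astrocyte libraries lay above every cortex library for the broad sum, while both aSMC groups overlapped cortex. These ranges hold with TMM, whose factors were 0.423 to 0.551 in Ai47 aSMCs and 2.205 and 2.212 in Ai14 aSMCs. The factors were 0.697 to 1.87 in cortex and 1.52 to 2.68 in labelled astrocytes. Multiplying the sums by these factors returns them to library totals alone, and the overlaps change. The broad sums of Ai47 aSMCs then lie below all cortex libraries and those of Ai14 aSMCs above all of them. The neuronal sums of Ai47 aSMCs then lie below those of Ai14 aSMCs and labelled astrocytes, and no sorted library reaches cortex. Overlap in these sums therefore depends on the scaling. In bulk samples, fewer cells of a type and less RNA per cell cannot be told apart.

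**Figure D1:**
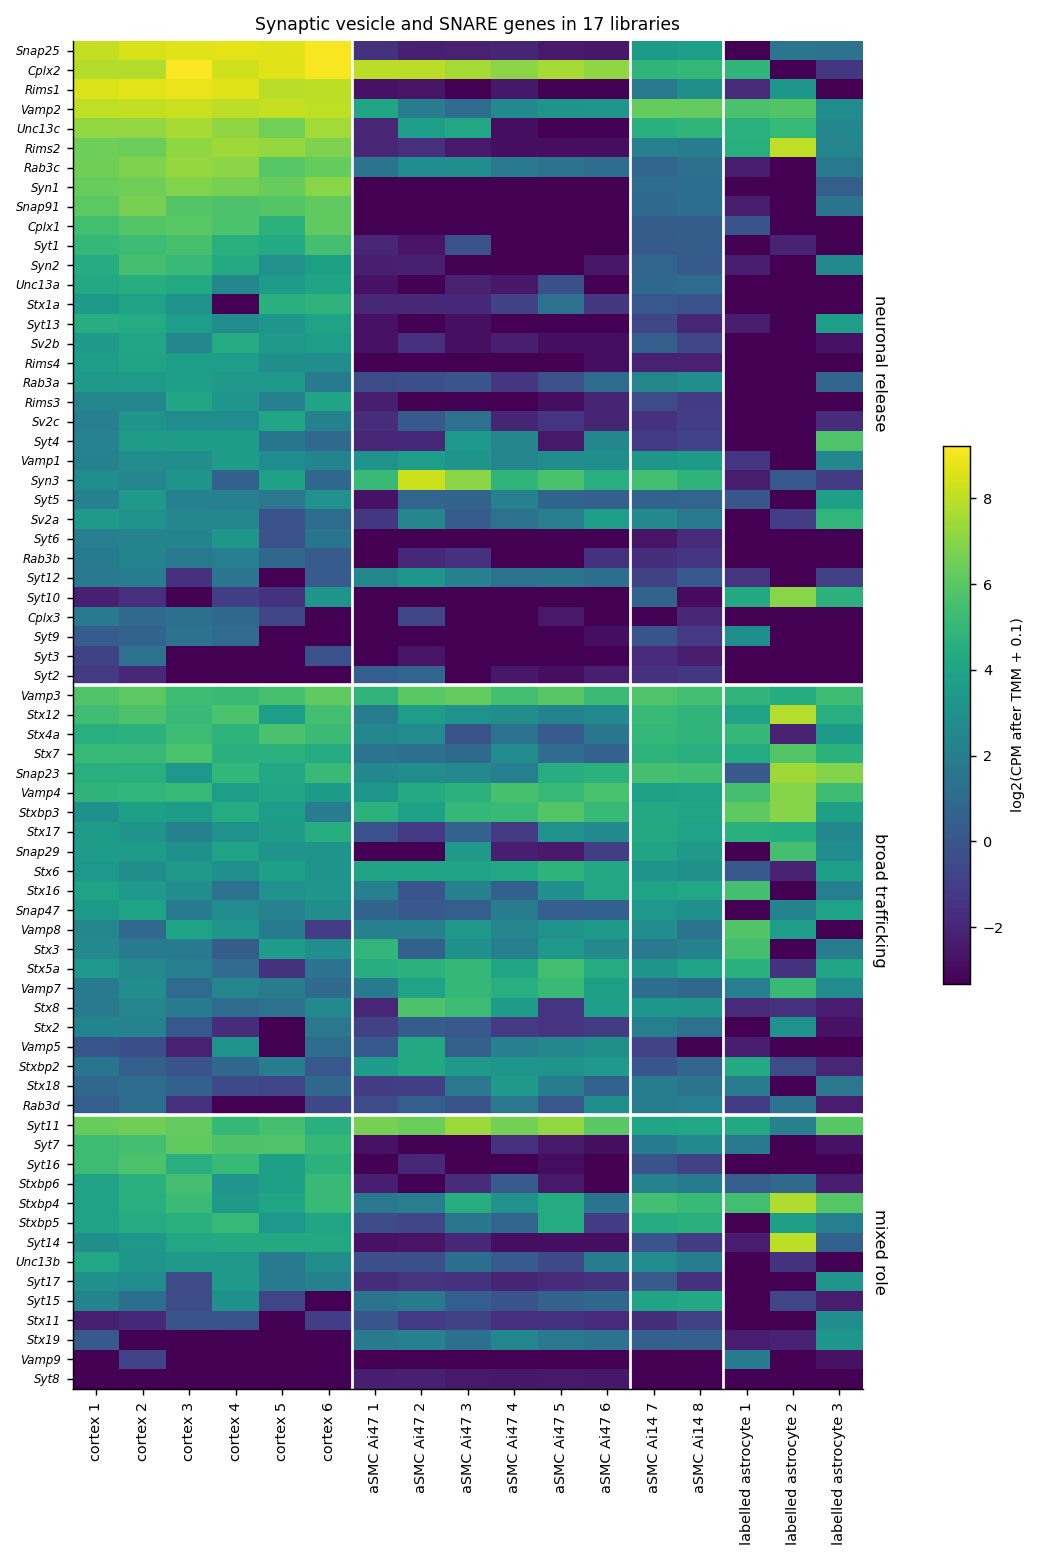
Level of synaptic vesicle and SNARE genes (rows) in each of the 17 libraries (columns), as log2(CPM after TMM + 0.1), with rows sorted by mean cortex level within the 3 role lists and white lines between groups. The neuronal block is bright in cortex and dark in Ai47 aSMCs except for single rows such as Cplx2 (134 to 248 CPM) and Syn3 (22.96 to 307 CPM), and the broad block has no such step.

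The change from cortex was tested for 66 members, since Stx11, Syt2, Syt3, Syt8 and Vamp9 were under the filter on low counts. The quasi-likelihood test of edgeR was used, adjusted by the method of Benjamini and Hochberg over 14927 genes, and a call means an adjusted p under 0.05. In Ai47 aSMCs against cortex, 36 members fell and 7 rose, where 26.5% of all genes tested fell and 24.1% rose. Of the neuronal list, 26 of 33 tested members fell and 1 rose (Syn3), with a median log2 change of -6.45 (-6.30 with genes without counts at their bounds) against -0.16 (-0.18) over all genes tested. Of the broad list, 4 of 22 fell, 5 rose and 13 did not pass, with a median of 0.36. Of the 11 tested mixed members, 6 fell and 1 rose.

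In Ai14 aSMCs against cortex, 9 members fell and none rose, where 2% of all genes fell and 3.97% rose. Of the 9, 8 were neuronal, none of the 22 broad members was called in edgeR's test, and at an unadjusted p under 0.05 the broad count was also 0. DESeq2 called 25 members lower and 0 higher in this comparison. Its share over all genes is not given, so this count cannot be set against the shares above, which are those of edgeR. No call in Ai14 aSMCs held when either of their 2 libraries was left out, which leaves 1 library assumed to vary like the other groups. In labelled astrocytes against cortex, 28 members fell and 5 rose, where 19.8% of all genes fell and 14.6% rose. Of the neuronal list, 22 of 33 fell and 1 rose (Syt10), and of the broad list 2 fell and 2 rose. The 3 comparisons share the 6 cortex libraries.

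Scaling moved these values together. With library totals alone, the median of all genes shifted by -1.34 in Ai47 aSMCs, by 0.86 in Ai14 aSMCs and by 0.88 in labelled astrocytes on the log2 scale. Measured from the median of all genes, the neuronal median was -6.29 in Ai47 aSMCs, -4.50 in Ai14 aSMCs and -6.02 in labelled astrocytes with TMM, and -5.94, -4.42 and -5.85 with library totals. On the same footing the broad median was 0.52, -0.29 and 0.84 with TMM, and 0.57, -0.32 and 0.72 with library totals. These neuronal values include fitted changes of genes without counts, which were 10 of the neuronal list in labelled astrocytes. With such genes at their bounds and TMM, the neuronal medians themselves were -6.30, -4.18 and -5.26. Those of all genes were then -0.18, 0.33 and -0.08. Of the 36 members that fell in Ai47 aSMCs, 35 were called under each of 3 other scalings, but of the 7 that rose only Syn3 was.

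**Figure D2:**
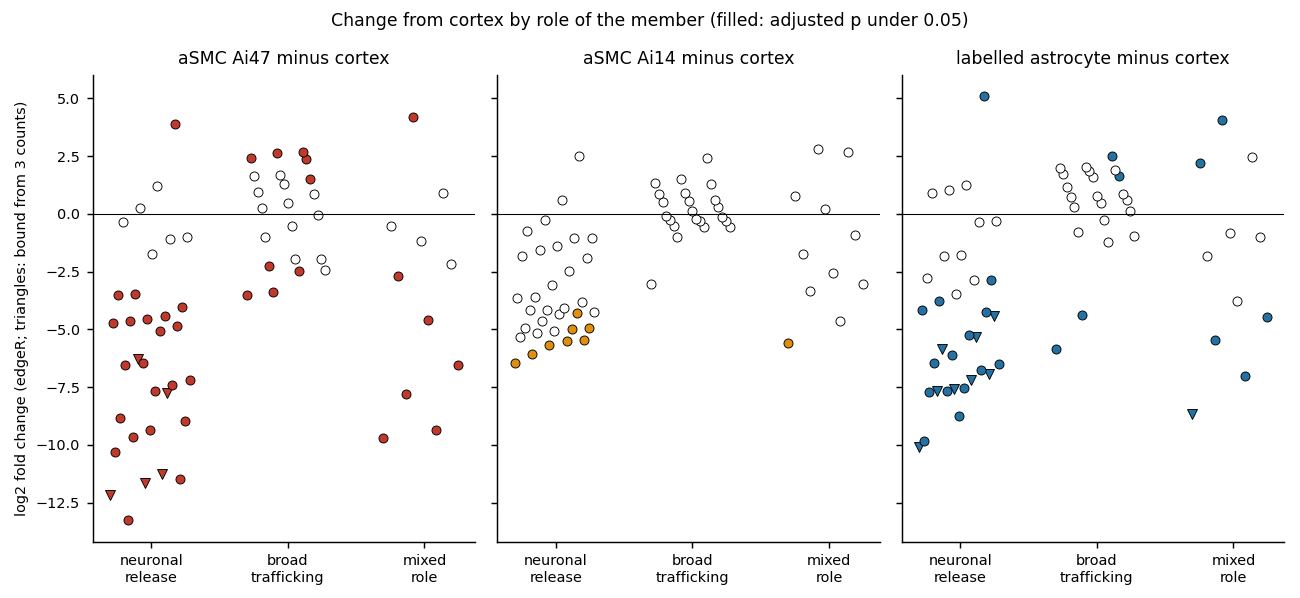
Log2 fold change from cortex of the 66 tested members by role list, for Ai47 aSMCs, Ai14 aSMCs and labelled astrocytes. Filled symbols have an edgeR adjusted p under 0.05 and triangles stand for genes without counts in a group, drawn at the bound that 3 counts over the group give. The neuronal columns lie mostly below 0 (medians with genes at their bounds -6.30, -4.18 and -5.26) and the broad columns around 0 (0.36, 0.03 and 0.76).

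The membrane SNAREs are given first. Snap25, the neuronal target-membrane SNARE (chr2:136713453-136782428, plus strand, GRCm38), had 269 to 549 CPM in cortex (median 395). It had 0.0728 to 0.262 CPM in Ai47 aSMCs (median 0.118), 11.4 and 13.4 CPM in Ai14 aSMCs, and 0, 2.92 and 2.68 CPM in labelled astrocytes. No group outside cortex overlapped it, and the log2 change was -11.49 ± 0.85 (SE; edgeR adjusted p = 1.1e-09) in Ai47 aSMCs, -5.00 ± 1.05 (0.0055) in Ai14 aSMCs and -7.73 ± 1.01 (2.1e-05) in labelled astrocytes. Its paralogue Snap23, which serves constitutive exocytosis, had 10.2 to 36.3 CPM in cortex, 4.13 to 26.7 CPM in Ai47 aSMCs, 41.9 and 45.7 CPM in Ai14 aSMCs, and 1.03, 171 and 119 CPM in labelled astrocytes. Snap23 overlapped cortex in Ai47 aSMCs and labelled astrocytes and lay above it in Ai14 aSMCs, and it was called in none of the 3 comparisons.

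Per kb of exon, Snap25 was 87.8% to 96.0% of the Snap25 and Snap23 pair in cortex. The share was 0.172% to 2.82% in Ai47 aSMCs, 13.6% and 16.8% in Ai14 aSMCs and 0% to 1.41% in labelled astrocytes. Of the other SNAP members, Snap91 (AP180, a clathrin adaptor of vesicle retrieval rather than a SNARE) had no counts in any Ai47 library against 53.6 to 100.1 CPM in cortex, at least 3204-fold lower from 3 counts over the group. Snap47 fell by 2.24 ± 0.90 in Ai47 aSMCs (edgeR adjusted p = 0.044), and overlapped cortex. This call was lost in most fits without 1 library (for example, adjusted p = 0.12 without cortex replicate 2) and with mitochondrial genes removed (0.087).

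Vamp2, the principal SNARE of the synaptic vesicle, had 253 to 297 CPM in cortex (median 267), 1.99 to 17.1 CPM in Ai47 aSMCs (median 7.71), 74.2 and 77.7 CPM in Ai14 aSMCs, and 49.4, 57.0 and 6.72 CPM in labelled astrocytes. All sorted libraries lay below all cortex libraries, with log2 changes of -5.08 ± 0.59 (edgeR adjusted p = 6.7e-07) in Ai47 aSMCs, -1.83 ± 0.80 (0.20, not called) in Ai14 aSMCs and -2.85 ± 0.71 (0.0048) in labelled astrocytes. Vamp3 (cellubrevin), which recycles endosomes in most cells, was called in none of the comparisons with cortex, at 34.6 to 70.9 CPM in cortex, 29.3 to 74.4 CPM in Ai47 aSMCs, 44.7 and 55.2 CPM in Ai14 aSMCs and 21.6 to 40.7 CPM in labelled astrocytes. Its log2 change in Ai47 aSMCs was -0.03 ± 0.41 and in Ai14 aSMCs -0.09 ± 0.58.

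The Vamp2 share of the Vamp2 and Vamp3 pair was 73.9% to 84.95% in cortex, 1.99% to 30.7% in Ai47 aSMCs, 51.6% and 55.8% in Ai14 aSMCs and 11.1% to 66.7% in labelled astrocytes. Vamp2 and Vamp3 were, per kb, the first and second members by mean level in Ai14 aSMCs, at 19.9 and 17.3 CPM per kb. Vamp1, the second synaptobrevin, did not follow Vamp2. It had 4.45 to 12.3 CPM in cortex, 5.38 to 13.2 CPM in Ai47 aSMCs and 10.1 and 11.4 CPM in Ai14 aSMCs, and none of these differences was called. The Vamp1 share of the Vamp1 and Vamp8 pair overlapped between cortex (9.61% to 74.7%) and Ai47 aSMCs (13.6% to 40.5%).

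Of the other VAMPs, Vamp7, a late endosomal and lysosomal SNARE, rose in Ai47 aSMCs by 2.41 ± 0.72 on the log2 scale (edgeR adjusted p = 0.0085), from 1.89 to 7.01 CPM in cortex to 3.67 to 35.0 CPM. The groups overlapped through the lowest aSMC library, and with library totals alone the change was 1.01 (adjusted p = 0.28). Vamp7 reads may be shared with its pseudogene Vamp7-ps, so its level is uncertain. Vamp4, a SNARE of the trans-Golgi network, was higher in labelled astrocytes (45.3, 122 and 40.2 CPM) than in cortex (11.5 to 34.3 CPM), by 1.62 ± 0.61 (edgeR adjusted p = 0.043) and with no overlap. Without labelled astrocyte replicate 2 the change was 0.80 (adjusted p = 0.32), and the call was also lost without any 1 cortex library (0.052 to 0.088). Vamp5, named for muscle, had 0.995 to 18.7 CPM in Ai47 aSMCs and 1 count in the 3 labelled astrocyte libraries together, where it was called lower than in cortex (edgeR adjusted p = 0.035) at a ratio of 64.3 (exact 95% Clopper-Pearson interval 11.2 to 2573, counting error only). Cortex itself was at 0 to 2.08 CPM for Vamp5 but for replicate 4 at 8.70 CPM, without which the call was lost (adjusted p = 0.068), as it was without labelled astrocyte replicate 2 or 3 (0.081 and 0.082).

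The syntaxins come next. Stx1a, a release syntaxin of neurons without counts in labelled astrocytes (0 in 3 libraries, at least 189-fold lower than cortex), had 0 to 28.9 CPM in cortex and 0.157 to 2.51 CPM in Ai47 aSMCs. The change in Ai47 aSMCs was -4.55 ± 1.16 (edgeR adjusted p = 0.0031), with overlap through cortex replicate 4, which had no counts.

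Stx4a, the plasma membrane syntaxin of nonneuronal secretion, was itself lower in Ai47 aSMCs (0.811 to 6.61 CPM) than in cortex (24.5 to 48.6 CPM), by -3.39 ± 0.82 (edgeR adjusted p = 0.0018). In Ai14 aSMCs it had 33.2 and 29.4 CPM, within the cortex range, and it was lower in Ai47 than in Ai14 aSMCs (-3.28 ± 0.96, adjusted p = 0.016). The 2 aSMC groups thus differed for this broad paralogue with no overlap, although leaving out Ai14 replicate 7 (adjusted p = 0.165) or 8 (0.135), Ai47 replicate 3, 4, 5 or 6 (0.066 to 0.074) or cortex replicate 3 or 5 (0.053 and 0.052) ended that call.

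The endosomal syntaxins Stx7 and Stx12 also fell in Ai47 aSMCs. Stx7 had 21.0 to 51.4 CPM in cortex against 1.42 to 6.48 CPM (-3.50 ± 0.57, edgeR adjusted p = 4e-05), and Stx12 had 12.7 to 53.3 CPM against 3.82 to 12.7 CPM (-2.45 ± 0.63, adjusted p = 0.0028). In Ai14 aSMCs both stood inside the cortex range, at 27.3 and 24.2 CPM for Stx7 and 36.6 and 29.1 CPM for Stx12. Stx5a, the syntaxin of traffic from endoplasmic reticulum to Golgi, rose in Ai47 aSMCs from 0.258 to 10.3 CPM in cortex to 17.4 to 42.4 CPM, by 2.68 ± 0.83 (adjusted p = 0.010) with no overlap, and by 1.08 (adjusted p = 0.32) with library totals alone. Stx8 was uneven among Ai47 libraries, at 0.157, 52.8, 38.5, 12.05, 0.283 and 13.2 CPM in replicates 1 to 6, and overlapped cortex (1.98 to 6.43 CPM). Its change of 2.36 ± 0.97 (adjusted p = 0.048) was lost without replicate 2 (1.98, adjusted p = 0.10), without replicate 3 (0.073), without any 1 of cortex replicates 1 to 5 (0.055 to 0.068) and with library totals alone (0.97, 0.43). In labelled astrocytes Stx8 had 0.101 to 0.254 CPM, below all cortex libraries (-4.39 ± 1.495, edgeR adjusted p = 0.028), a call lost without any one of the 3 libraries (adjusted p = 0.052 to 0.071). Stx19, a syntaxin of mixed role without a transmembrane segment, had counts in only 1 cortex library (1.03 CPM) and 2.31 to 5.34 CPM in Ai47 aSMCs (4.20 ± 1.35, adjusted p = 0.014), or 2.64 (0.11) with library totals alone.

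Of the 6 syntaxin-binding genes, 2 rose and 2 fell in Ai47 aSMCs. Against the 24.1% of all genes that rose and 26.5% that fell, these counts are no result about the family. Stxbp3 (Munc18c), the form of nonneuronal cells, had 3.78 to 21.0 CPM in cortex, 14.4 to 59.3 CPM in Ai47 aSMCs, 19.1 and 16.3 CPM in Ai14 aSMCs and 68.6, 122 and 13.8 CPM in labelled astrocytes. It rose by 1.502 ± 0.56 (edgeR adjusted p = 0.032) in Ai47 aSMCs and by 2.52 ± 0.65 (0.0059) in labelled astrocytes, with overlap in both. The first was lost without cortex replicate 1 (adjusted p = 0.053) and was 0.23 (adjusted p = 0.77) with library totals alone, and the second 1.59 (adjusted p = 0.073) without labelled astrocyte replicate 2.

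Stxbp2 (Munc18-2), known from blood and epithelial secretion, had 9.02 to 19.5 CPM in Ai47 aSMCs against 0.873 to 3.87 CPM in cortex (2.64 ± 0.91, edgeR adjusted p = 0.020) with no overlap, and 0.944 and 1.64 CPM in Ai14 aSMCs. With library totals alone its change in Ai47 aSMCs was 1.37 (adjusted p = 0.22). Stxbp4, which binds syntaxin 4, had 42.6, 214 and 59.9 CPM in labelled astrocytes, all above cortex (11.1 to 37.8 CPM), by 2.18 ± 0.73 (edgeR adjusted p = 0.025) and by 0.98 (adjusted p = 0.35) without replicate 2. The call was also lost without cortex replicate 1, 2, 4 or 5 (0.055 to 0.065).

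**Figure D3:**
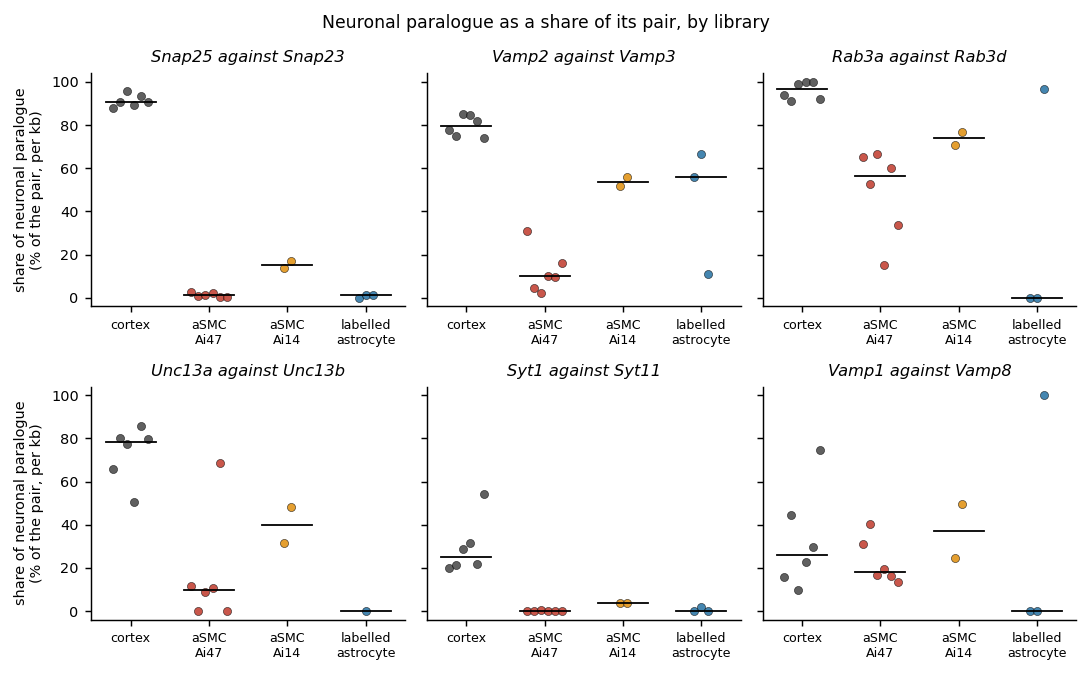
Share of the neuronal paralogue in each of 6 pairs, as a percent of the pair's counts per kb of exon, with 1 point per library and a bar at the median of each group. In Ai47 aSMCs 4 of the 6 ranges lie below the cortex range, in Ai14 aSMCs 5 and in labelled astrocytes 4, of which Unc13a against Unc13b rests on 1 library with 2 counts.

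Over the 6 pairs, the neuronal share in Ai47 aSMCs lay wholly below cortex in 4, the exceptions being Unc13a with Unc13b and Vamp1 with Vamp8. In Ai14 aSMCs it was below cortex in 5, all but Vamp1 with Vamp8. In labelled astrocytes the same was true of 4, the exceptions being Rab3a with Rab3d and Vamp1 with Vamp8. For Unc13a with Unc13b, 2 of the 3 labelled astrocyte libraries had no counts of either gene. Within a library a share is unaffected by scaling, and it rests on few reads where both genes were low.

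The vesicle-associated proteins held both members without a count in aSMCs and members that did not fall. Syn1, the synapsin that tethers vesicles to actin, had 79.8 to 126 CPM in cortex and no count in any of the 6 Ai47 libraries, which is at least 4645-fold lower. It had 2.10 and 2.21 CPM in Ai14 aSMCs and 0, 0 and 1.31 CPM in labelled astrocytes. The promoter of Syn1 is known as a target of the repressor REST (NRSF), whose RE1 element keeps neuronal genes silent in other cells. The core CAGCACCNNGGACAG was searched on both strands in 72 promoters of 56 members (300 bases each, 250 before to 50 after the start, from RefSeq on GRCm38.p6). The other members, Snap25 and Syn3 among them, had no promoter available and were not searched. Of the 35 neuronal members, 24 were searched. With up to 2 mismatches at its 13 defined letters it occurred in 3 of 33 promoters of neuronal members, in 0 of 25 of broad members, in 0 of 14 of mixed members and in 1.92% of all 32851 promoters of the table. No searched promoter of a member held an exact match, against 0.0365% of all promoters. The 3 windows follow, shown because they are the only matches among the searched members, with the 15 matched bases in capitals.
Syn1 (chrX:20921104-20921168, minus strand, 1 mismatch): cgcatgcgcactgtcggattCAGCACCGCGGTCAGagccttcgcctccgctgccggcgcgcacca
Syt2 (chr1:134646460-134646534, plus strand, 2 mismatches): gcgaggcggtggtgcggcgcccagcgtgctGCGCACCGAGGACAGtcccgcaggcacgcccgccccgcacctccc
Syt6 (chr3:103575876-103575930, plus strand, 2 mismatches, element on the opposite strand): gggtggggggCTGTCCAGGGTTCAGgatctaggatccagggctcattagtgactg
A match describes these letters in this window and is not a shown binding site. Syt6 had 0.775 to 9.89 CPM in cortex and no counts in Ai47 aSMCs, while Syt2 had at most 0.342 CPM in cortex and up to 1.60 CPM in Ai47 aSMCs and was not tested. The median GC content was alike in promoters of neuronal (62.3%) and broad (60.3%) members. It was lower over all promoters (52.7%) and over promoters of genes in the count table (58.7%). Of the latter, 2.15% held a match with up to 2 mismatches. The part of base content in these rates was not tested.

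Syn3, the third synapsin, ran opposite to Syn1. It had 22.96 to 307 CPM in Ai47 aSMCs (36.4, 307, 132, 29.6, 48.6 and 22.96 CPM in replicates 1 to 6), 43.5 and 28.9 CPM in Ai14 aSMCs, 1.38 to 14.5 CPM in cortex and 0.0936 to 1.01 CPM in labelled astrocytes. Both aSMC groups lay above all cortex libraries. The change was 3.90 ± 0.79 in Ai47 aSMCs (edgeR adjusted p = 0.00039) and was called in every alternative run, while in Ai14 aSMCs it was 2.49 ± 0.91 (0.12, not called) and in labelled astrocytes -3.76 ± 1.10 (adjusted p = 0.013). The mean in Ai47 aSMCs was 96.0 CPM, and 53.8 CPM without replicate 2. Against labelled astrocytes Syn3 was higher by 7.66 ± 1.32 in Ai47 aSMCs (adjusted p = 0.00010) and by 6.25 ± 1.31 in Ai14 aSMCs (0.0026). The gene Timp3, a matrix metalloproteinase inhibitor, lies within Syn3 on the opposite strand and overlaps 1733 bases (14.1%) of its exons. Timp3 had 858 to 1164 CPM in Ai47 aSMCs, a mean of 1183 CPM in Ai14 aSMCs and 146.5 CPM in cortex, and rose in Ai47 aSMCs by 2.76 ± 0.34 (edgeR). No strand setting is given for the counting, so reads of the 2 genes cannot be told apart where they overlap, and the part of Timp3 in the Syn3 level was not tested.

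Cplx2, a complexin that clamps and promotes fusion at synapses, was 1 of the 6 tested neuronal members called in neither direction in Ai47 aSMCs. It had 218 to 601 CPM in cortex (median 355), 134 to 248 CPM in Ai47 aSMCs (median 188), 29.9 and 32.6 CPM in Ai14 aSMCs and 29.8, 0 and 0.303 CPM in labelled astrocytes. The ranges of cortex and Ai47 aSMCs overlapped, and the mean of the second was 49.6% of the first while the 12 neuron markers stood at 0.751%. Per kb it was the highest of all 71 members in Ai47 aSMCs (38.6 ± 9.68 CPM per kb, SD, n = 6) as in cortex (77.8 ± 33.3, SD, n = 6). Cplx1, its close relative, had 26.3 to 70.7 CPM in cortex and no counts in Ai47 aSMCs, at least 2459-fold lower. Against labelled astrocytes Cplx2 was higher in Ai47 aSMCs by 4.24 ± 1.19 (edgeR adjusted p = 0.0060), or 1.91 (0.13) with library totals alone.

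Among the RAB3 genes, Rab3c had 61.7 to 152 CPM in cortex, 2.26 to 7.06 CPM in Ai47 aSMCs, 1.61 and 2.39 CPM in Ai14 aSMCs and 0 to 3.28 CPM in labelled astrocytes, and was called lower in all 3 (-4.65 ± 0.79, -5.69 ± 1.38 and -6.45 ± 1.19, edgeR adjusted p = 5.9e-05, 0.016 and 0.00045). Rab3a, the most studied vesicle RAB, was the less abundant, at 3.40 to 13.6 CPM in cortex and 0.295 to 2.04 CPM in Ai47 aSMCs (-3.50 ± 0.96, adjusted p = 0.0050). Rab3d, of secretory granules outside neurons, had 0 to 2.23 CPM in cortex, 0.629 to 7.53 CPM in Ai47 aSMCs and 3.93 and 4.03 CPM in Ai14 aSMCs, and was called in none of these. The Rab3a share of the pair was 90.99% to 100% in cortex, 15.2% to 66.4% in Ai47 aSMCs and 70.9% and 76.8% in Ai14 aSMCs. Of the SV2 genes, Sv2b and Sv2c fell in Ai47 aSMCs and in labelled astrocytes, and Sv2a was called in neither. Of all genes tested, 26.5% and 19.8% fell in these groups.

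**Figure D4:**
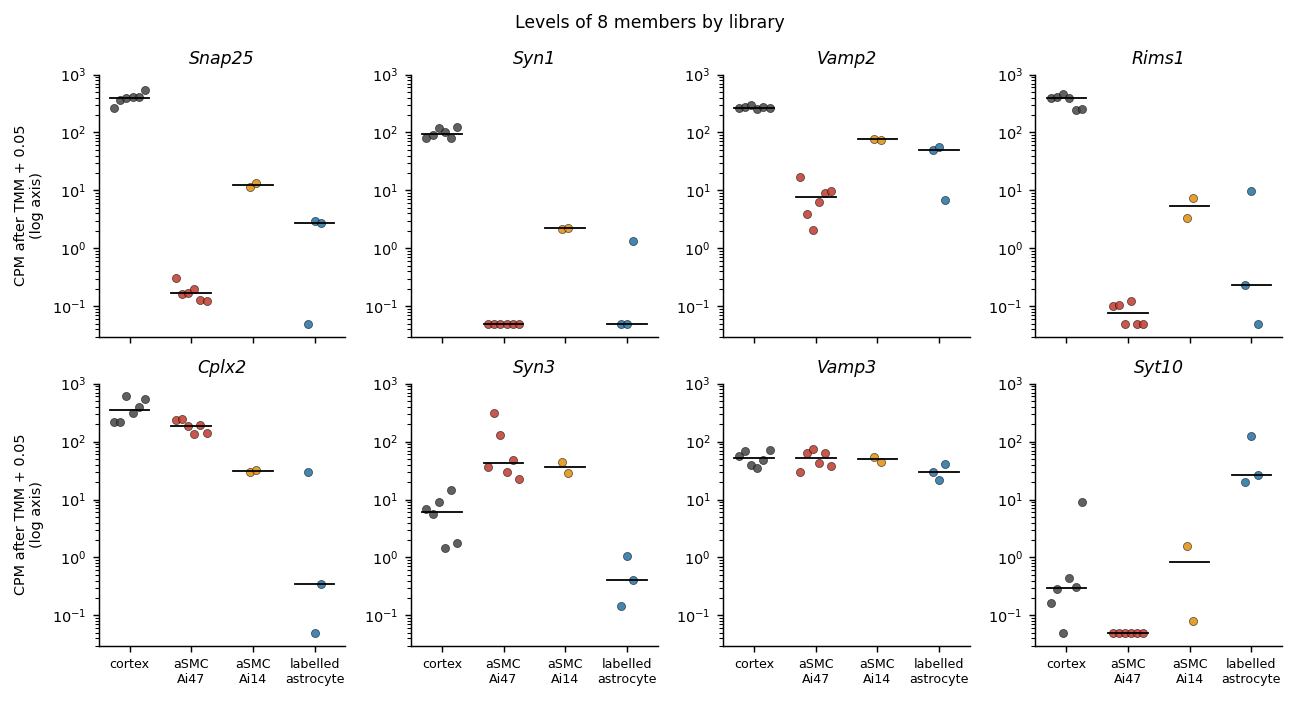
CPM after TMM (+ 0.05, log axis) of 8 members in each library, with 1 point per library and a bar at the group median. Snap25, Syn1, Vamp2 and Rims1 drop from cortex to Ai47 aSMCs, Vamp3 stays level (29.3 to 74.4 against 34.6 to 70.9 CPM), Cplx2 overlaps cortex, Syn3 is raised in both aSMC groups and Syt10 is raised in labelled astrocytes.

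The priming and active zone genes were nearly all lower in Ai47 aSMCs. There the 4 RIM and 3 UNC13 genes fell, against 26.5% of all genes tested. Rims1, a scaffold that links RAB3 to UNC13 and calcium channels, had 248 to 464 CPM in cortex, 0 to 0.0737 CPM in Ai47 aSMCs, 3.26 and 7.49 CPM in Ai14 aSMCs and 0.187, 9.89 and 0 CPM in labelled astrocytes. Its log2 change in Ai47 aSMCs was -13.27 ± 1.32 (edgeR adjusted p = 8e-08). Of the 4 RIM genes, 3 fell in Ai14 aSMCs and 3 in labelled astrocytes, where 2% and 19.8% of all genes fell. Rims4 had 1 count in the 6 Ai47 libraries together against 540 in cortex, a ratio of 1743 (exact 95% Clopper-Pearson interval 312 to 68990, counting error only). Rims2 was the RIM not called lower in labelled astrocytes, where it had 23.8, 261 and 5.10 CPM against 83.8 to 173 CPM in cortex, and it was lower in both aSMC groups than in labelled astrocytes with no overlap (-9.93 ± 0.99, edgeR adjusted p = 1.5e-07, and -4.57 ± 1.25, 0.016). The second of these calls was lost without either Ai14 library (0.123 and 0.145) or labelled astrocyte replicate 2 (-1.90, 0.12).

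Unc13a (Munc13-1), the neuronal priming factor, had 5.73 to 22.3 CPM in cortex, 0 to 0.728 CPM in Ai47 aSMCs (-6.53 ± 1.15, edgeR adjusted p = 0.00012), 1.70 and 2.03 CPM in Ai14 aSMCs and no counts in labelled astrocytes. Unc13b (Munc13-2), found also outside the brain, had 3.62 to 17.7 CPM in cortex and 0.606 to 3.86 CPM in Ai47 aSMCs (-2.68 ± 0.85, adjusted p = 0.013). The Unc13a share ranged from 0% to 68.4% in Ai47 aSMCs and overlapped cortex (50.6% to 85.8%) through 1 library. Unc13c was uneven in Ai47 aSMCs, at 0.157, 13.2, 17.7, 0.0368, 0 and 0 CPM, all under the cortex range of 94.5 to 195 CPM.

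Among the synaptotagmins, 9 of 14 tested fell in Ai47 aSMCs and none rose, where 26.5% of all genes fell and 24.1% rose. Syt1, the fast calcium sensor of release, had 20.1 to 46.9 CPM in cortex, 0 to 0.771 CPM in Ai47 aSMCs (-7.66 ± 1.21, edgeR adjusted p = 2.8e-05), 1.07 and 1.21 CPM in Ai14 aSMCs (-4.92 ± 1.75, 0.11, not called) and 1 count in the 3 labelled astrocyte libraries. Syt11, which does not bind calcium and acts in endocytic traffic, had 24.8 to 89.6 CPM in cortex and 65.4 to 163 CPM in Ai47 aSMCs (0.92 ± 0.53, adjusted p = 0.15), and was the second member per kb there (21.0 ± 7.14 CPM per kb, SD, n = 6). Ai14 aSMCs had less of it, at 16.4 and 18.4 CPM, under all cortex and all Ai47 libraries, and the contrast between the aSMC groups was 2.65 ± 0.88 (edgeR adjusted p = 0.031), but 0.43 (0.72) with library totals alone, and the call was lost without either Ai14 library (0.17 and 0.13). The Syt1 share of the Syt1 and Syt11 pair was 20.01% to 54.1% in cortex, at most 0.295% in Ai47 aSMCs, 3.90% and 3.96% in Ai14 aSMCs and at most 1.80% in labelled astrocytes.

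In labelled astrocytes the member with the highest mean level per kb was Syt10, a rank that leans on replicate 2, without which its mean falls from 57.6 to 23.1 CPM. Syt10 is a calcium sensor described for growth factor secretion in olfactory neurons. It had 19.7, 127 and 26.5 CPM in labelled astrocytes, 0 to 0.396 CPM in 5 cortex libraries and 9.07 CPM in the sixth, no counts in Ai47 aSMCs, and 1.55 and 0.0303 CPM in Ai14 aSMCs. All 3 labelled astrocyte libraries exceeded all others, and the change from cortex was 5.11 ± 1.51 (edgeR adjusted p = 0.017), or 3.54 (0.12) without labelled astrocyte replicate 2. Syt14 rested on that replicate altogether, with 0.0936, 256 and 1.41 CPM against 7.30 to 19.8 CPM in cortex. Without replicate 2 its change from cortex was -4.53 (adjusted p = 0.012) in place of a value that was not called. Syt16, of the same subfamily as Syt14, had 13.9 to 52.9 CPM in cortex, at most 0.171 CPM in Ai47 aSMCs and no counts in labelled astrocytes. Syt15 was higher in Ai14 aSMCs (16.0 and 19.0 CPM) than in labelled astrocytes (0 to 0.507 CPM), by 6.47 ± 1.79 (edgeR adjusted p = 0.017), a call lost without either Ai14 library (0.054 and 0.073).

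The 2 aSMC groups were compared directly. In Ai47 against Ai14 aSMCs 23 members were lower and 2 higher, where 16% of all genes were lower and 9.55% higher. Of the 23, 17 were neuronal, among them Syn1 (no counts in Ai47 aSMCs, at least 101-fold lower, edgeR adjusted p = 0.00018), Snap25 (-6.49 ± 0.77, 5.4e-06), Rims1 (-7.21 ± 1.20, 0.00022) and Vamp2 (-3.25 ± 0.64, 0.0010). The 2 higher members were Syt11 and Vamp7 (3.40 ± 1.20, adjusted p = 0.042). Of the 23 lower calls, 9 held, and neither higher call held, when any 1 library was left out. The 12 neuron markers summed to 5.88 to 53.0 CPM in Ai47 aSMCs and 68.3 and 88.4 CPM in Ai14 aSMCs, with Camk2a alone at a mean of 67.5 CPM in Ai14 aSMCs and 0.0162 CPM in Ai47 aSMCs, and the oligodendrocyte and microglia markers summed to 2.05 and 3.35 CPM in Ai47 aSMCs and 200.1 and 30.4 CPM in Ai14 aSMCs on average. As percentages of cortex, Ai14 aSMCs had 2.94% of the neuron markers, whose mean sum of 78.4 CPM was mostly Camk2a. Single neuronal members spread widely around that value. Rims4 stood at 1.07%, Rims1 at 1.49% and Rab3c at 1.93%. Syn1, Cplx1, Snap91, Snap25 and Syt1 stood at 2.18%, 2.29%, 2.98%, 3.12% and 3.28%. Unc13a stood at 11.8%, Unc13c at 18.0%, Vamp2 at 28.1%, Rab3a at 59.9% and Syn3 at 561%. Over the 33 tested neuronal members the median was 5.49%. Of these, 21 were under 10%, 8 from 10% to 50%, 3 from 50% to 200% and 1 above 200%. The part of other cells in these levels was not tested. The groups also differ in reporter allele, depth and mitochondrial share, which cannot be told apart from the group.

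Against labelled astrocytes, Ai47 aSMCs had 9 members higher and 21 lower, where 26.1% of all genes were higher and 23.8% lower. The higher ones included Syn3 and Cplx2 of the neuronal list, and Vamp5 (a ratio of 230 on 1 count in labelled astrocytes, exact 95% Clopper-Pearson interval 41.1 to 9090, edgeR adjusted p = 0.0085) and Stx8 (6.75 ± 1.67, 0.0025) of the broad list. Among the lower ones were Syt10 (no counts in Ai47 aSMCs, at least 2700-fold lower), Rims2, Snap23 (-3.02 ± 0.86, 0.0070), Stx7 (-3.64 ± 0.63, 9.7e-05) and Stx12 (-3.62 ± 0.71, 0.00037). Only 6 of the 21 lower calls held when any 1 library was left out, and 8 of the 9 higher ones did. Ai14 aSMCs had 11 members higher and 2 lower than labelled astrocytes, where 13.6% of all genes were higher and 3.56% lower, and Syn3, Unc13a and Unc13b were among the higher calls that held without any 1 library.

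Other genes of the pathway were listed by role and not by change. Over all genes tested, 26.5% fell in Ai47 aSMCs, 2% in Ai14 aSMCs and 19.8% in labelled astrocytes. Of 10 tested genes of the active zone and calcium-triggered release, 8 fell in Ai47 aSMCs, 3 in Ai14 aSMCs and 8 in labelled astrocytes, and none rose. The scaffold Bsn fell in all 3 groups (-9.07 ± 0.66, -5.24 ± 0.92 and -10.37 ± 0.996, edgeR). Of 12 genes of the vesicle membrane and its filling, 7, 1 and 5 fell, and 1 rose in Ai47 aSMCs, which was the vesicular monoamine transporter Slc18a2, at 556 to 982 CPM against 0.189 to 7.75 CPM in cortex and 0.609 and 2.94 CPM in Ai14 aSMCs (7.77 ± 0.82 in Ai47 aSMCs against cortex, edgeR). The vesicular glutamate transporter Slc17a7 fell in all 3 groups, from 31.2 to 71.6 CPM in cortex to no counts in Ai47 aSMCs, a mean of 0.805 CPM in Ai14 aSMCs and 1 count in labelled astrocytes. Of 20 SNARE partners and chaperones, 6 fell and 3 rose in Ai47 aSMCs, none was called in Ai14 aSMCs in either direction by edgeR (2 lower at an unadjusted p under 0.05), and 3 fell and 5 rose in labelled astrocytes. Against the shares of all genes (26.5% lower and 24.1% higher in Ai47 aSMCs, 19.8% and 14.6% in labelled astrocytes), these counts are no result about the list. Nsf, the ATPase that takes SNARE complexes apart, fell in Ai47 aSMCs (-3.02 ± 0.78) and labelled astrocytes (-3.45 ± 1.06). Its brain adaptor Napb fell in both (-2.66 ± 0.98 and -7.23 ± 1.69), while the broad adaptor Napa was not called in either (0.30 ± 0.88 and 0.38 ± 1.06). The Golgi SNAREs Sec22b and Bet1l rose in Ai47 aSMCs by 6.11 ± 0.72 and 4.91 ± 1.11. They were also called higher in labelled astrocytes (2.12 ± 0.68 and 3.31 ± 1.128), but both overlapped cortex there. Sec22b had 2.54, 19.1 and 149 CPM in these libraries, in rising order, against 4.65 to 18.7 CPM in cortex. Bet1l had 0, 4.55 and 61.3 CPM in the same order of size, against 0 to 3.97 CPM, so that 1 library holds most of each mean. Of 10 recycling genes, Dnm1, the neuronal dynamin, fell from 18.9 to 36.3 CPM in cortex to 3 counts over the 6 Ai47 libraries and to a mean of 0.624 CPM in labelled astrocytes, and the ubiquitous Dnm2 was called in neither (-0.32 ± 0.70 and -0.30 ± 0.87).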

How the data were processed

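Cells were sorted or cortex was homogenized, and the RNA was made into libraries with NuGEN Ovation kits per the labels, while the study's methods name TruSeq. The authors deposited 1 table of raw counts, whole numbers without normalization, for 21640 gene symbols and 17 libraries. The submitters' processing notes name Trim Galore 0.6.7, FastQC 0.11.9, MultiQC 1.13, Salmon 1.4.0 and GRCm38, and the methods name TopHat and htseq-count. Neither strand setting nor annotation release is given in the sources used here. Amplification before sequencing can raise the spread of low genes, and counts of reads are not counts of molecules, so bounds and intervals cover counting error only.

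The 17 libraries were fitted together in edgeR 4.0.16 (R 4.3.3) with filterByExpr at a minimum count of 10, TMM and the quasi-likelihood test, which pools the spread for the group of 2. Errors of fold changes are standard errors, and p-values were adjusted by Benjamini-Hochberg over 14927 genes. The calling step was tested on simulated counts. Levels between genes were compared per kb of union exon length from GENCODE M21, which matched all 71 members. The share of a paralogue is its counts per kb over those of the pair. Alternatives were DESeq2 1.42.0, 3 scalings, no filter, fewer libraries and a replicate block. Tables and plots were made in Python 3.11.15 with matplotlib 3.10.9, pandas 2.3.3 and scipy 1.17.1.

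Members named are both genes of each of 6 pairs, the 5 largest called changes in each direction of each comparison, the 3 highest per kb of each group, and neuronal members called higher or broad members called lower outside cortex. Members of neighbouring families or pathways outside this rule were named after their values were seen. The members and lists were chosen with earlier results of these data known. The counts and medians are over all members, and the values of some members are not reported here.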

Additional observations from a re-analysis of the deposited data

Results flagged for a closer look

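In the groups of 6, the highest or lowest library of each named member was compared with its nearest neighbour by Dixon's gap at 95% (0.625 of the range). Of 82 gene and group pairs, 18 stood out. The nominal rate of about 1 in 20 assumes normally distributed values, which CPM with many zeros are not. Where only 1 library holds reads, it always stands out, so the 18 cannot be set against chance. In cortex, Syt10 was 9.07 CPM in replicate 6, where the others were at most 0.396 CPM, and Rab3a was 3.40 CPM in the same library, where the others were at least 10.3 CPM. Cortex replicate 4 was high for Vamp1 (12.3 CPM) and Vamp5 (8.70 CPM), and replicate 1 was the only one with Stx19 (1.03 CPM). In Ai47 aSMCs, replicate 6 was high for Rab3a (2.04 CPM) and Rab3d (7.53 CPM) and held the only reads of Rims4 and Syt9 (0.0364 CPM each). Replicate 4 was high for Snap47 (3.83 CPM) and Stx7 (6.48 CPM), and replicate 5 for Stx1a (2.51 CPM) and Unc13a (0.728 CPM). Replicate 2 was high for Stxbp2 (19.5 CPM), Vamp5 (18.7 CPM) and Syt16 (0.171 CPM), and replicate 3 for Syt1 (0.771 CPM) and Syt14 (0.162 CPM). The cause of these values was not tested.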

How the results depend on the processing

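Of the recomputed counts of called members, 233 were within 1.5 times the reported one and 51 were not. With library totals alone the counts were 1 higher in Ai47 aSMCs against cortex, 1 higher and 5 lower in Ai14 aSMCs against cortex, 9 higher in labelled astrocytes against cortex, 4 higher and 35 lower in Ai47 aSMCs against labelled astrocytes, and 0 higher and 40 lower in Ai47 against Ai14 aSMCs. With the 6 Ai47 columns summed into 1 library they were 1 higher and 16 lower in Ai47 aSMCs against cortex, 3 higher in labelled astrocytes against cortex, 4 higher and 4 lower in Ai47 aSMCs against labelled astrocytes, and 0 higher and 1 lower in Ai47 against Ai14 aSMCs. DESeq2 gave 25 lower in Ai14 aSMCs against cortex, 7 lower in Ai14 aSMCs against labelled astrocytes (4 with its size factors in edgeR) and 6 higher in Ai47 against Ai14 aSMCs. The shares of all genes called in these alternative runs are not given, so their counts are set only against the reported counts. Without single libraries the counts of higher and lower members ranged from 5 to 8 and 34 to 37 (Ai47 aSMCs against cortex), 0 to 0 and 0 to 14 (Ai14 aSMCs against cortex), 2 to 8 and 27 to 33 (labelled astrocytes against cortex), 9 to 18 and 14 to 20 (Ai47 aSMCs against labelled astrocytes), 4 to 16 and 0 to 5 (Ai14 aSMCs against labelled astrocytes), and 0 to 4 and 9 to 24 (Ai47 against Ai14 aSMCs). The 0 in Ai14 aSMCs against cortex came without either Ai14 library. Leaving out cortex replicate 6 gave 5 there, and leaving out labelled astrocyte replicate 1 or 2 gave 14. Higher members of labelled astrocytes against cortex numbered 8 without labelled astrocyte replicate 1, and 2 or 3 without labelled astrocyte replicate 2 or any 1 cortex library. The 18 came without labelled astrocyte replicate 3. In Ai14 aSMCs against labelled astrocytes, 4 and 6 were higher and 0 and 0 lower without Ai14 replicates 7 and 8, and 4, 0 and 5 lower without labelled astrocyte replicates 1, 2 and 3. In Ai47 against Ai14 aSMCs, 9 and 12 were lower and 0 and 0 higher without Ai14 replicates 7 and 8, 15 were lower without Ai47 replicate 4, 5 or 6, and 4 were higher without labelled astrocyte replicate 1 or 2. The cause of these moves was not tested, apart from the fewer samples.

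The replicate numbers were not taken to pair the samples, although the study's text, unlike the labels, describes the cortex control as coming from the sorted animals. Correlations of same-numbered libraries were -0.0272 to 0.0136 between Ai47 aSMCs and cortex and -0.0505 to 0.0323 between labelled astrocytes and cortex. With the replicate block, labelled astrocytes had 1 member higher than cortex and Ai47 aSMCs 12 members lower than labelled astrocytes, and the other counts moved by less than 1.5 times.

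In 7 cases, a named member's change had opposite signs in the main and another fit and was called in at least 1 of them. With library totals alone, Syt11 (-0.52) and Vamp3 (-1.52) turned in Ai47 aSMCs against labelled astrocytes, and Vamp3 (-2.17) in Ai47 against Ai14 aSMCs. Leaving out a labelled astrocyte library turned Stx19 (replicate 3, range -0.75 to 8.73 over fits without 1 library), Syt14 (replicate 2, -4.53 to 2.95) and Syt9 (replicate 1, -7.40 to 1.47) against cortex, and Syt9 (replicate 1, -8.15 to 1.02) in Ai47 aSMCs against labelled astrocytes. Of the recomputed paralogue shares, 137 stayed within 1 SD and 12 moved further.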
